A study of Rattus norvegicus with 3 samples.

Results

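The nuclear-encoded subunits of oxidative phosphorylation were described in single cells of injured rat spinal cord. They were chosen by gene symbol: symbols that begin with Ndufa, Ndufb, Ndufc, Ndufs or Ndufv and a digit, Sdha to Sdhd, and symbols that begin with Uqcr, with Cox4 to Cox8 followed by a, b or c, or with Atp5. The rule matched 86 of the 25199 features in the table. Of these, 79 held at least 50 unique molecular identifiers (UMIs, each standing for 1 captured mRNA molecule) over the kept cells. The other 7 were Ndufa1, Cox8c, Cox7b2 and Cox6c-ps1, all listed at 0, Atp5pb with 2 UMIs, Cox8b with 4 and a second Ndufa10l1 feature (ENSRNOG00000062245) with 9. Just inside the limit were a second Ndufv3 feature (ENSRNOG00000027593) with 54 UMIs and Cox7a1 with 178. The symbols also take in genes that are not fixed subunits: Atp5if1 encodes the inhibitor of ATP synthase, Cox7a2l a factor that joins complexes III and IV, and Cox6c-ps1 is named as a pseudogene. The rule leaves out some true subunits, among them Cox4i1 and Ndufab1.

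Oxidative phosphorylation is carried out in the inner mitochondrial membrane. Complexes I, III and IV pump protons while electrons pass from NADH to oxygen, complex II feeds in electrons from succinate, and complex V, the ATP synthase, uses the proton gradient to make ATP. Most subunits are encoded in the nucleus and imported, while a core set is encoded by mitochondrial DNA, so the complexes need transcripts from both genomes. A few complex IV subunits and the Ndufa4 family have tissue-restricted isoforms: Cox6a2 and Cox7a1 are known from heart and skeletal muscle, Cox6b2 from testis, and Ndufa4l2 as a target of hypoxia signalling.

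The series holds 3 libraries, made with the 10x Genomics 3′ v3 kit from wild-type rats 6 to 8 weeks old. All animals had a spinal cord injury and received an injection at that site of PBS (phosphate-buffered saline, the control) or of a preparation that the labels call G-HD or MPG-HD; the series is about a hydrogel depot for severe injury. Each condition used 5 animals, from which a 5-mm piece of cord around the injury was dissociated with collagenase and trypsin, and gave 1 library. The labels state neither the time after injury nor whether the cells of the 5 animals were pooled, and no uninjured cord was included.

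The PBS, G-HD and MPG-HD libraries held 1513, 2619 and 2339 cell barcodes, of which 1374, 2342 and 2087 were kept. Their total UMIs ran from 16081082 to 26289759 and their median UMIs per kept cell from 9247.5 to 10425. The pairs of libraries shared 4 to 7 barcodes. Cells were clustered without the genes described here and named from markers, and a name ends in "-like" because it was rebuilt from the data. In PBS, G-HD and MPG-HD in turn, 6 classes had at least 50 cells in each library and were tested: macrophage-like (209, 557 and 298 cells), oligodendrocyte-like (244, 183 and 420), microglia-like (211, 227 and 273), fibroblast-like (137, 237 and 168), Schwann-like (95, 203 and 209) and T-like (51, 106 and 53). No cluster was named as neurons or astrocytes. An unnamed cluster led by C1qc, Cd8a and Siglec1 held 179, 184 and 258 cells. Median depth differed between classes, from 3236 to 3470 UMIs per cell in T-like and 4332 to 4652 in Schwann-like cells to 15827 to 17572 in macrophage-like cells.

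Over all kept cells the 86 genes gave 1752575 UMIs. Complex V and complex I each gave 28.5% of them, complex IV 27.2%, complex III 11.5% and complex II 2.23%, with 1.98% from Ndufa4 and Ndufa4l2. Ndufa4 was first assigned to complex I and is now placed in complex IV, so this pair was kept apart. Because the 3′ kit counts molecules rather than fragments, levels were compared between genes as counts of UMIs scaled to the same total (CPM) with no division by length. The 78 members tested had a median log2 CPM of 8.13, against 4.20 for all 10644 genes tested.

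Complex IV held the most abundant members. Cox8a, one of its small membrane subunits, was at 1118 CPM in PBS, 1178 in G-HD and 1118 in MPG-HD. Cox6a1, the widely expressed form of subunit VIa, was at 981, 1121 and 1066, and Cox6c at 976, 957 and 979. In complex V, Atp5f1e, the epsilon subunit of the F1 head, was at 967, 900 and 948, Atp5mg, a membrane subunit, at 764, 790 and 771, and Atp5f1b, the catalytic beta subunit, at 679, 759 and 698. These 6 genes lay above every member of complexes I and II.

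In complex III, the small subunits led: Uqcr10 was at 680, 614 and 591 CPM, Uqcrq at 572, 533 and 571 and Uqcrh, the hinge protein, at 526, 515 and 553. In complex I, Ndufa13 was at 572, 568 and 598 CPM, Ndufb2 at 448, 436 and 460 and Ndufb8 at 384, 403 and 404. Complex II had the lowest levels: Sdhb, its iron-sulfur subunit, was at 243, 241 and 245 CPM, and the membrane anchors Sdhc and Sdhd were at 156, 158 and 168 and at 143, 131 and 146. The core subunit Ndufs1, which holds iron-sulfur clusters in complex I, was low in this 3′ table, at 14.6, 13.4 and 11.2 CPM.

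The summed level of the 86 genes differed between cell classes more than between libraries. Oligodendrocyte precursor-like cells were the highest at 36799 ± 1355 CPM (mean ± SD over the 3 libraries, as for all such values). Among the 6 tested classes the order was fibroblast-like (29527 ± 1230), Schwann-like (29419 ± 752), oligodendrocyte-like (28275 ± 958), macrophage-like (25985 ± 631), microglia-like (23554 ± 1399) and T-like cells (21617 ± 732). The first 3 of these neighbours overlapped within their spread. Macrophage-like cells lay below all 3 in every library, at 26249 in PBS, 26441 in G-HD and 25265 in MPG-HD. Microglia-like cells were at 23142, 22408 and 25112, and T-like cells, at 22434, 21021 and 21397, lay below microglia-like cells in each library. Neutrophil-like cells (10269 ± 1397) and an unnamed cluster led by G0s2 and Il1r2 (10902 ± 2180) were the lowest, with as few as 2 and 21 cells in a library. In these sums a smaller share of OXPHOS transcripts cannot be told apart from a larger share of other transcripts.

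**Figure D1:**
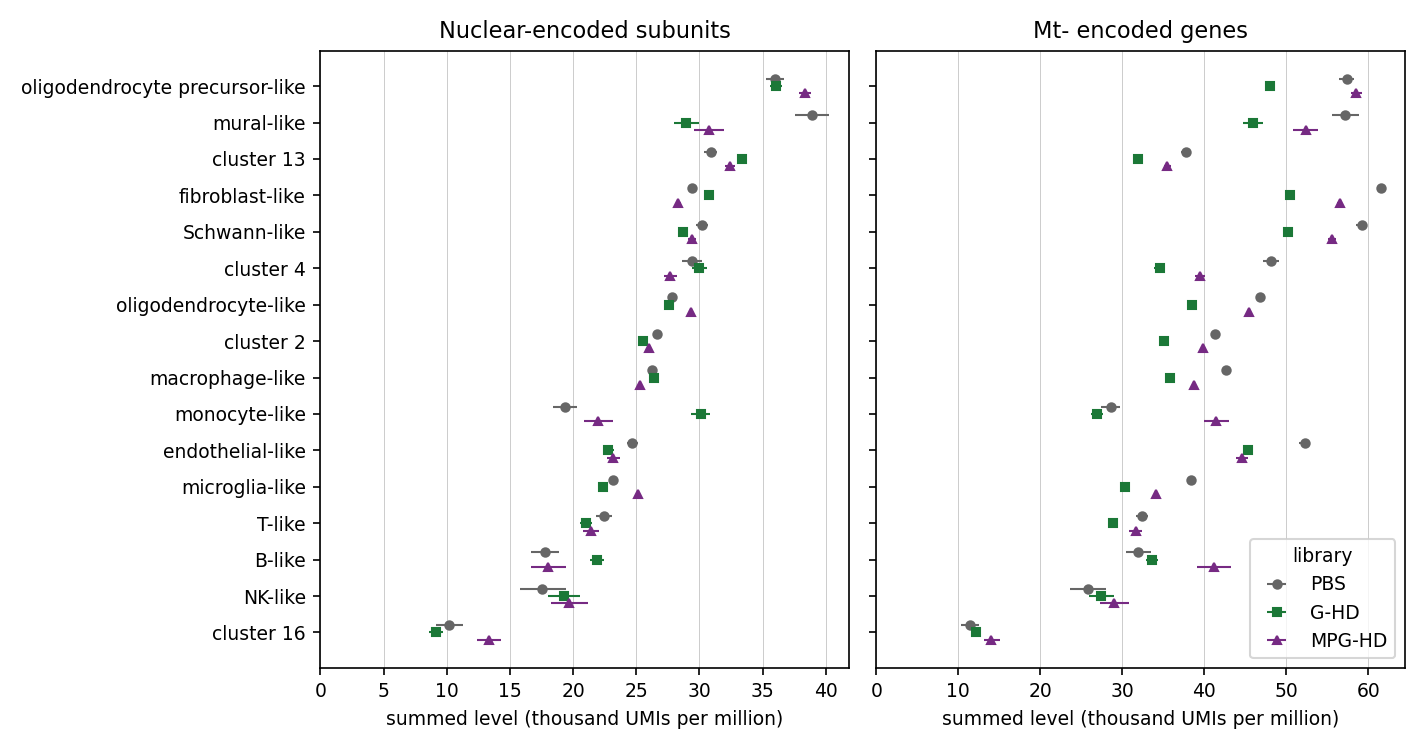
Summed level of the nuclear-encoded subunits (left) and of the 13 Mt- genes (right), in CPM with the axis in units of 1000 CPM, for each class or unnamed cluster with at least 5 cells in every library; points are libraries and bars are 95% intervals for counting error. Oligodendrocyte precursor-like cells are highest on the left (36799 CPM on average) and the unnamed cluster 16 is lowest (10902), while on the right the G-HD points lie below the PBS points in all 6 tested classes.

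How the members compare between classes depends on the scaling. Each of the 6 classes was set against the mean of the other 5 with edgeR's quasi-likelihood test on UMIs summed per library and class, with the library as a block and Benjamini-Hochberg adjustment over 10644 genes at 0.05. The 6 contrasts share the same 18 sums, so they are not independent of each other. TMM scaling, the main setting, assumes that most genes do not differ. In oligodendrocyte-like cells, however, 35.7% of all genes were called higher and 26.4% lower with it. Scaling by total UMIs lets a few very abundant genes lower all others. Those genes held unequal shares: the top 50 genes took 45.2% to 46.3% of the UMIs of macrophage-like cells and 26.2% to 27.7% of those of Schwann-like cells. The TMM factors were 0.673 to 0.699 in macrophage-like, 0.851 to 0.863 in microglia-like and 1.33 to 1.41 in Schwann-like cells. With total UMI scaling the median of all genes moved from 0.02 to −0.63 (log2) in macrophage-like and from 0.08 to 0.62 in Schwann-like cells. Levels in CPM, here and below, are on the total UMI scale, and fold changes are on the TMM scale unless stated.

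**Figure D2:**
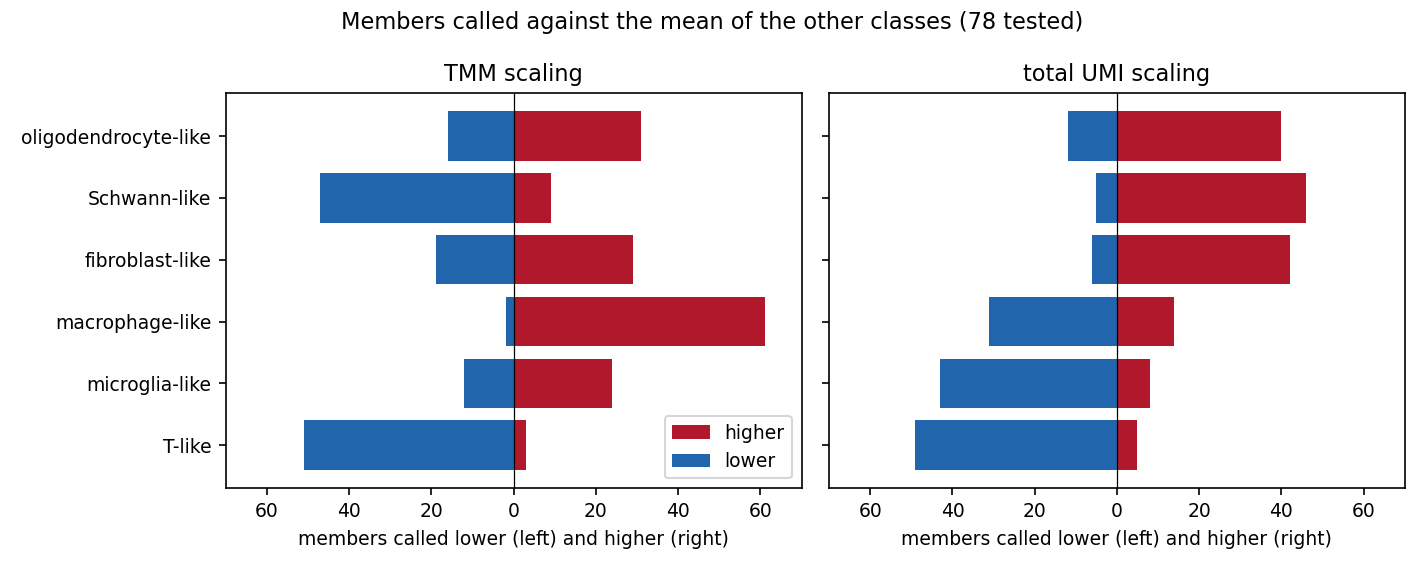
Number of the 78 tested members called lower (blue, left of 0) and higher (red, right of 0) in each class against the mean of the other 5, by edgeR with TMM scaling (left panel) and total UMI scaling (right panel). Macrophage-like cells go from 61 higher and 2 lower to 14 higher and 31 lower, and Schwann-like cells from 9 higher and 47 lower to 46 higher and 5 lower, while T-like cells keep mostly lower calls (51 and 49) in both panels.

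Ratios between complexes within a class do not depend on this scaling. The summed UMIs of complex I over those of complex V were 1.27, 1.27 and 1.26 in oligodendrocyte-like cells of PBS, G-HD and MPG-HD (mean 1.27 ± 0.00537). Fibroblast-like cells had 1.04, 1.01 and 1.02, Schwann-like cells 1.01, 1.02 and 1.03, microglia-like cells 0.925, 0.987 and 0.944 and macrophage-like cells 0.907, 0.905 and 0.924. T-like cells had 0.841, 0.772 and 0.807. Oligodendrocyte-like cells were thus the highest and T-like cells the lowest of the 6 tested classes in each library, with no overlap with the other classes. Oligodendrocyte precursor-like cells, at 0.992, 1.02 and 1.06, lay below oligodendrocyte-like cells in all 3 libraries. Other untested groups reached these ends. Ependymal-like cells were at 1.29, 1.24 and 1.14 and the unnamed cluster 16 at 1.09, 1.27 and 1.12, with as few as 2 and 21 cells in a library. Monocyte-like cells, at 0.824, 0.761 and 0.715, lay below T-like cells in each library, with as few as 13 cells. The ratio of complex IV over complex V was also highest of the 6 in oligodendrocyte-like cells (1.02 ± 0.000472) and lowest in Schwann-like cells (0.837 ± 0.0147). No test of these ratios was run.

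**Figure D3:**
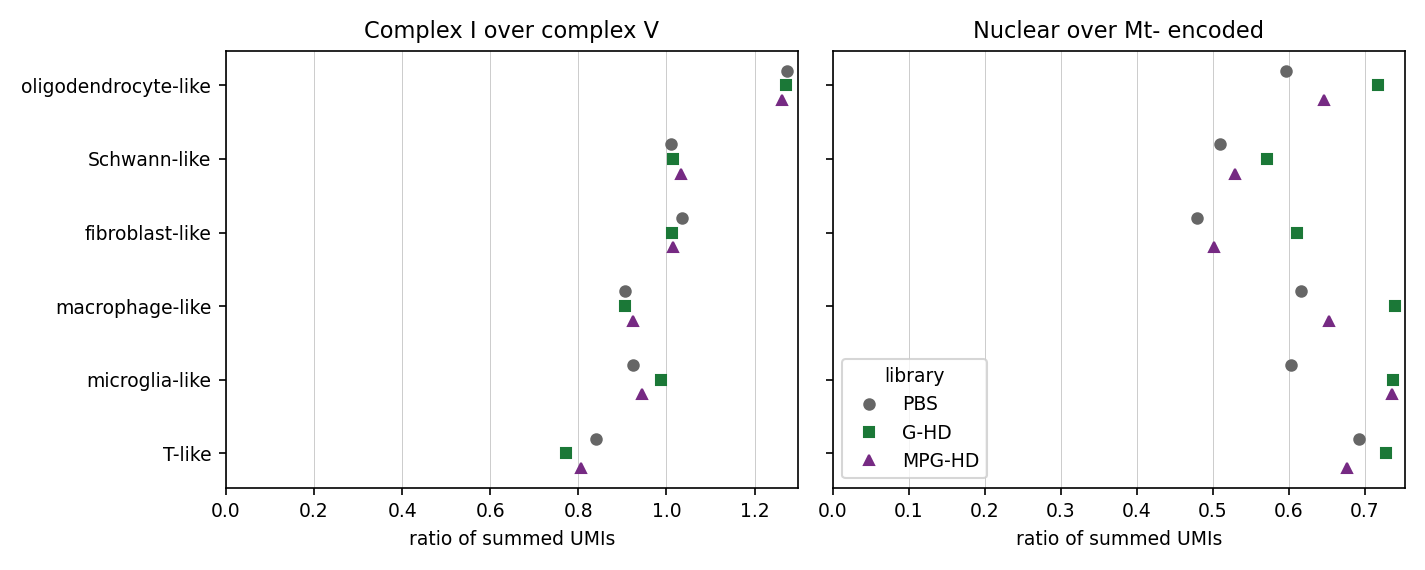
Ratio of the summed UMIs of complex I over complex V (left) and of all nuclear-encoded subunits over the 13 Mt- genes (right) in the 6 tested classes; each point is 1 library. Oligodendrocyte-like cells stand at 1.26 to 1.27 on the left, and on the right the G-HD point lies above the PBS point in all 6 classes.

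Oligodendrocyte-like cells, the myelin-forming cells of the cord, had 31 of 78 members higher and 16 lower, against 35.7% and 26.4% of all genes tested. Calls were split by complex: 20 of 33 complex I members were higher and 2 lower, whereas 4 of 16 complex V members were higher and 8 lower. With total UMI scaling 40 were higher and 12 lower (39.5% and 23.9% of all genes), and 31 and 12 kept the same call in both scalings, against 35.7% and 23.9% of all genes.

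Cox5a, which helps to regulate complex IV, was at 777, 921 and 925 CPM in oligodendrocyte-like cells of PBS, G-HD and MPG-HD, against 295, 342 and 285 in fibroblast-like cells. Its log2 fold change was 0.88 (SE 0.0675, edgeR adjusted p = 6.7e-11), and every library of this class lay above every library of the other 5. Sdhd was at 233, 246 and 233 CPM and higher by 0.91. On the other side stood members of complex V: Atp5if1 was at 285, 319 and 324 CPM and lower by 0.84, and Atp5f1e was at 657, 584 and 668 CPM and lower by 0.70. Atp5mc3, 1 of 3 genes for the rotating c-ring, was lower by 0.52. These 5 calls kept their direction and passed the test in all 13 alternatives run.

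Macrophage-like cells had 61 of 78 members higher and 2 lower with TMM scaling, against 31.5% and 18.6% of all genes, but 14 higher and 31 lower with total UMI scaling (16.1% and 48.1% of all genes), and 17 members went from higher to lower. The median log2 fold change of the members was 0.56 with TMM and −0.10 with total UMI scaling, and that of all genes 0.02 and −0.63. A change of scaling moves all genes of a contrast by nearly the same amount, so the distance between these medians does not depend on it. Higher in both were 14 members (16.1% of all genes): Atp5f1e, Atp5if1, Cox5a, Cox6a1, Cox6b1 (ENSRNOG00000024309), Cox7c, Cox8a, Ndufa5, Ndufb2, Ndufb5, Ndufb8, Ndufb9, Sdhb and Uqcr10. Lower in both were Cox6b2 and Ndufa4 (18.6% of all genes).

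Atp5if1, the inhibitor that stops the ATP synthase from running in reverse, was at 855, 925 and 859 CPM in macrophage-like cells, and no library of another tested class exceeded 538 CPM. Its log2 fold change was 1.73 (SE 0.0697, edgeR adjusted p = 6.7e-16) and 1.07 in total UMI scaling. Uqcr10 was at 918, 720 and 719 CPM and higher by 1.34, and Cox8a at 1232, 1268 and 1243 and higher by 1.06. In fibroblast-like cells Uqcr10, at 745, 705 and 662 CPM, overlapped its range in macrophage-like cells. Cox8a, at 1382, 1503 and 1256 CPM, was higher in fibroblast-like than in macrophage-like cells in each library. Ndufa4 went the other way, at 289, 299 and 320 CPM against 404 CPM or more in the other tested classes, and was lower by 0.33 (SE 0.0727, edgeR adjusted p = 0.00054). A second Cox6b1 feature (ENSRNOG00000034161) was higher by 0.99 with TMM scaling but not called with total UMI scaling (edgeR adjusted p = 0.14). It shares its symbol with a more abundant feature, and reads of near-identical copies can be split between them, so its value is uncertain.

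Microglia-like cells, the resident macrophages of the cord, had 24 members higher and 12 lower (27.1% and 18.5% of all genes). With total UMI scaling the split was 8 higher and 43 lower (20% and 29.5% of all genes), and with DESeq2 it was 23 and 22. Without the PBS library 7 were lower. Higher in both scalings were 8 members (20% of all genes), and lower in both were 12 (18.5%). Sdhb was at 332, 305 and 328 CPM, above the other 5 classes in each library, and was higher by 1.03 (log2; SE 0.0788, edgeR adjusted p = 1.2e-10). Ndufb4, a membrane subunit of complex I, was at 172, 155 and 161 CPM and was lower by 0.74. Ndufa7 and Atp5me were lower by 0.49 and 0.39. A second Uqcrb feature (ENSRNOG00000032204) was higher by 0.62, but the call was lost with total UMI scaling, where it was 0.37, without the PBS or the G-HD library, and without the library block. Markers of macrophages summed to 4955 to 6672 CPM in microglia-like cells, against 24617 to 34433 in macrophage-like cells, and their part in these values was not tested.

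Fibroblast-like cells had 29 members higher and 19 lower with TMM scaling (33.8% and 19.4% of all genes), and 42 and 6 with total UMI scaling (39.8% and 14.2%). With RLE scaling in the same edgeR test they had 31 and 13, and with DESeq2 34 and 18. Leaving out PBS, G-HD or MPG-HD left 9, 12 and 9 lower calls. In both scalings 29 were higher and 6 lower, against 33.8% and 14.2% of all genes. Uqcr11, a small subunit of complex III, was at 773, 780 and 799 CPM, above the other 5 classes in each library, and was higher by 0.72 (log2; SE 0.0716, edgeR adjusted p = 1.0e-08). Lower in both scalings were Cox5a (by 0.97), Uqcrfs1, the Rieske iron-sulfur protein of complex III (by 0.77), Sdhb (by 0.44), Atp5if1 (by 0.37), Atp5f1c and Cox7a2l. Uqcrfs1 was at 114, 118 and 107 CPM, below the other 5 classes in each library.

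Schwann-like cells, the myelinating glia of peripheral nerve, had 9 members higher and 47 lower with TMM scaling (27.6% and 17.7% of all genes) but 46 higher and 5 lower with total UMI scaling (51.6% and 8.33%). Of the 47 lower calls, 19 turned to higher calls and 23 were lost. The 9 higher in both scalings (27.6% of all genes) included Cox6b2, Cox7a1, Ndufa9, Ndufb4, Ndufs4, Ndufv2, Sdhc and Uqcrc1. Without G-HD 4 were higher and without MPG-HD 2, and Sdhc (0.37 with all libraries), Ndufs4 (0.44) and Cox7a1 were not called without MPG-HD. The 5 lower in both (8.33% of all genes) were Cox5a, Cox7a2l, Ndufv3 (ENSRNOG00000001182), Uqcr10 and Uqcrh. Ndufv3, a subunit of the NADH-oxidizing arm of complex I, was at 125, 104 and 112 CPM and was lower by 1.05 (log2; SE 0.0972, edgeR adjusted p = 4.4e-09). Cox5a, Uqcrh and Cox7a2l were lower by 0.84, 0.77 and 0.76.

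T-like cells had 51 members lower and 3 higher (21.3% and 15.4% of all genes), and 49 lower and 5 higher with total UMI scaling (18.6% and 17.1%). The 49 lower calls were the same genes in both scalings (18.6% of all genes), and they held 26 of the 33 complex I members. The lowest log2 fold changes included those of Ndufc1, Ndufa11 and Ndufb5, all of complex I. Ndufa11, a membrane subunit, was at 97, 135 and 118 CPM, against 166 CPM or more in the other tested classes. Its edgeR adjusted p was 1.4e-07, with an SE of 0.140 (log2). Ndufc1 was lower by 1.30 and Ndufb5 by 1.14.

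Higher in both scalings in T-like cells were Cox7a2l, Cox7b and Uqcrh (15.4% of all genes). Cox7a2l was at 781, 662 and 793 CPM, against 487 CPM or less in the other tested classes, and was higher by 0.72 (log2; SE 0.0828, edgeR adjusted p = 2.1e-07). Uqcrh, at 844, 659 and 706 CPM, overlapped oligodendrocyte-like cells (599, 645 and 696), and its call (0.37) was lost without PBS, where the edgeR adjusted p was 0.096. Ribosomal protein genes, another abundant housekeeping group, took 33.7% to 34.3% of the UMIs of T-like cells and 6.40% to 6.91% of those of oligodendrocyte-like cells, and their part in the members' levels was not tested.

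**Figure D4:**
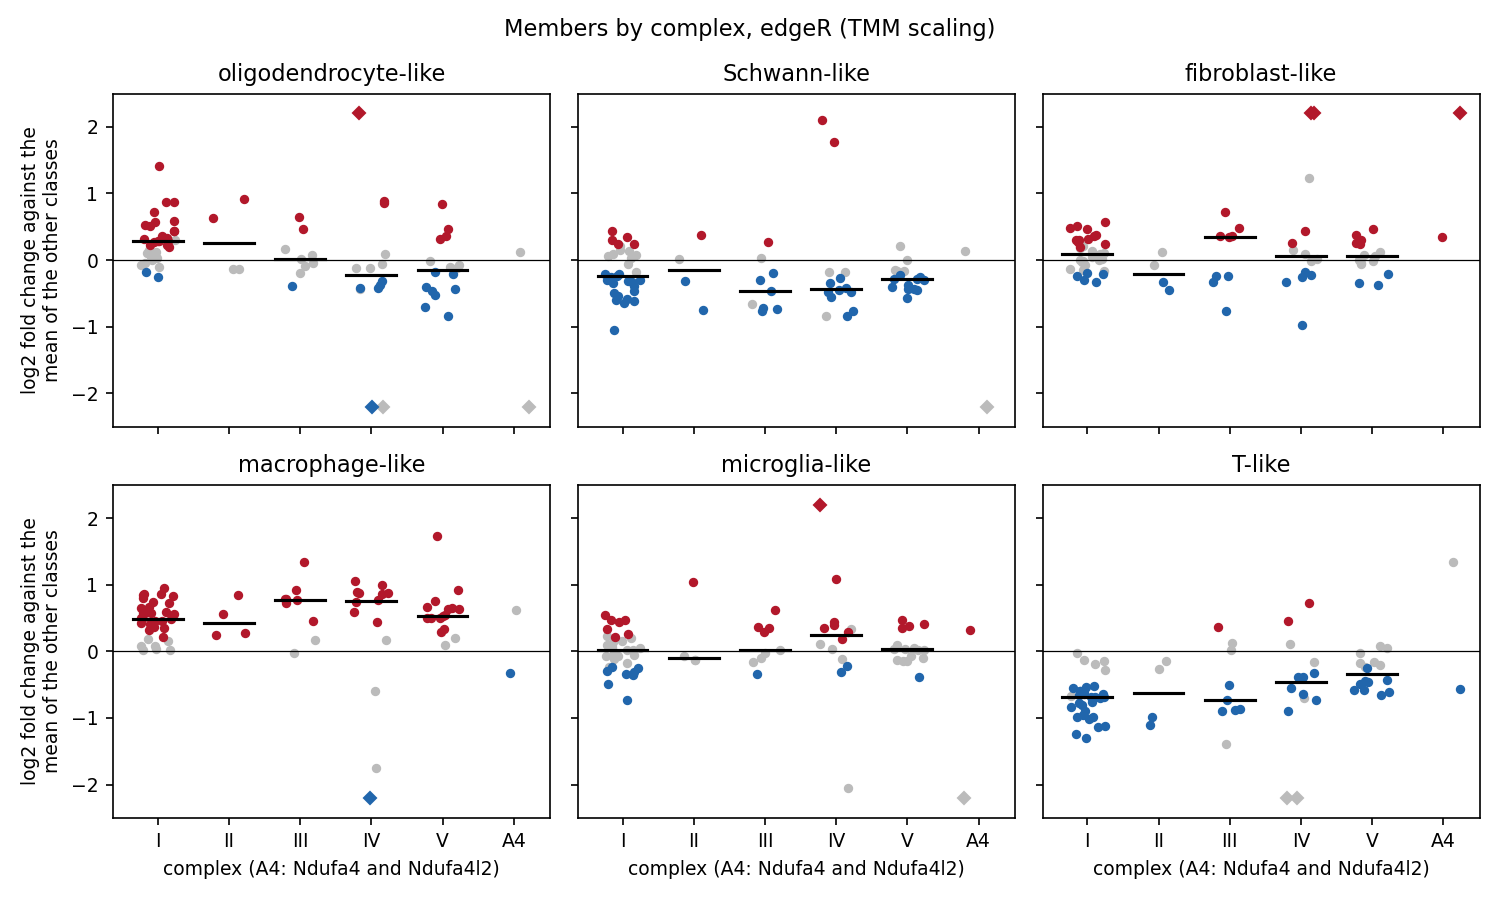
Log2 fold change of each tested member against the mean of the other 5 classes (edgeR, TMM scaling), by complex, with Ndufa4 and Ndufa4l2 as A4; red points were called higher, blue lower and grey not called, black bars are medians, and diamonds lie beyond 2.2 and are drawn at that limit. With TMM scaling complex I has a median of 0.28 and complex V of −0.15 in oligodendrocyte-like cells. The macrophage-like medians are all above 0 here. With total UMI scaling they are −0.17 for complex I, −0.24 for II, 0.11 for III, 0.09 for IV and −0.12 for V.

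Microglia-like cells were also set directly against macrophage-like cells, since both are mononuclear phagocytes. With TMM scaling 51 of 78 members were lower in microglia-like cells and 3 higher (18.3% and 14.3% of all genes). With total UMI scaling 22 were lower and 12 higher (11% and 31.6%). In both scalings 22 were lower (11% of all genes), and Cox6a2, Cox6b2 and Ndufa4 were higher (14.3%). Atp5if1 was lower by 1.13 (log2; SE 0.100, edgeR adjusted p = 4.4e-09), and Ndufb4, Ndufb6 and Cox7c by 1.03, 0.92 and 0.91. Cox7c was at 668, 578 and 675 CPM in microglia-like and 1033, 941 and 898 in macrophage-like cells, with no overlap. Ndufa4 was higher by 0.54 (log2), at 536, 504 and 616 CPM.

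The myelinating glia of cord and nerve were compared in the same way. With TMM scaling 42 members were higher and 2 lower in oligodendrocyte-like than in Schwann-like cells (25% and 25% of all genes), and 25 were higher without MPG-HD. With total UMI scaling 14 were higher and 22 lower (16.1% and 37%). Higher in both scalings were 14 members (16.1% of all genes), led by Cox5a (1.43 log2; SE 0.0964, edgeR adjusted p = 1.5e-11), Sdhd (1.38) and Ndufv3 (ENSRNOG00000001182; 1.18). Cox5a was at 777, 921 and 925 CPM in oligodendrocyte-like and 418, 424 and 413 in Schwann-like cells. Lower in both were Atp5if1 (by 0.37) and Cox6b2 (25% of all genes). Cox7a1 was higher by 1.34, but not with total UMI scaling or without the PBS or the MPG-HD library.

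The tissue-restricted isoforms were the members with the largest differences between classes, all on low counts. Their promoters are printed, beside those of 2 widely expressed members, because these genes were each found mainly in 1 or a few classes. The windows run from 250 bases before to 50 after the start in RefSeq's table for the GRCr8 build; 86 members were matched, 85 of them by symbol, and 74 had an entry. Capitals mark matches, on either strand, to the NRF1 core GCATGCG, the ETS core CCGGAAG, the YY1 core GATGGCG or the MEF2 motif, the last added after the Cox6a2 sequence had been seen. Cox6a1 has no entry. For the widely expressed Cox8a (chr1:213833574-213833873, minus strand) and Ndufa4 (chr4:40975510-40975809, minus strand), and the restricted Ndufa4l2 (chr7:65241919-65242218, plus strand), Cox6a2 (chr1:192219667-192219966, minus strand), Cox6b2 (chr1:78122621-78122920, plus strand) and Cox7a1 (chr1:94568966-94569265, plus strand), the windows read 5′ to 3′ as follows.
Cox8a: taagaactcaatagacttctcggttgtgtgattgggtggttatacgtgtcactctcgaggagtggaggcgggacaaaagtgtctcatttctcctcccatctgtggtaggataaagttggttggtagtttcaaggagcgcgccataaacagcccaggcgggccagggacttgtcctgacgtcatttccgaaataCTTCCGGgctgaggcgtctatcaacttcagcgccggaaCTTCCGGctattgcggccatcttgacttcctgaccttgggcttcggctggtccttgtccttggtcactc
Ndufa4: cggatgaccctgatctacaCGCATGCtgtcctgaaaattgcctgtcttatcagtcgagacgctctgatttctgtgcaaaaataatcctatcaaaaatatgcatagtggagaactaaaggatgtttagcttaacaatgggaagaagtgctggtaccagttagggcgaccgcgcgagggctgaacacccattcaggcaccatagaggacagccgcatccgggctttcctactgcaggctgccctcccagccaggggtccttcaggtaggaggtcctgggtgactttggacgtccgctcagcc
Ndufa4l2: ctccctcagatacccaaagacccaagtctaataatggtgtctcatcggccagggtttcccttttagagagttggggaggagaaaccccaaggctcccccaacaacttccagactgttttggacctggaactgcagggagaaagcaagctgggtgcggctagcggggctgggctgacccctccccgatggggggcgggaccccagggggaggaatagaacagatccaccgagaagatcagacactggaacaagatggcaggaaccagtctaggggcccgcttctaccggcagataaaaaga
Cox6a2: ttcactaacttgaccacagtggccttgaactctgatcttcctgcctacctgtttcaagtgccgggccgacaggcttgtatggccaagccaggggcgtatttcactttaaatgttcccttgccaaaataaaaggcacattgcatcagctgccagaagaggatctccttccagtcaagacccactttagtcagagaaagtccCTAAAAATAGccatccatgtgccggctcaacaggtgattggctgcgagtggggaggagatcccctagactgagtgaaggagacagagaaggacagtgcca
Cox6b2: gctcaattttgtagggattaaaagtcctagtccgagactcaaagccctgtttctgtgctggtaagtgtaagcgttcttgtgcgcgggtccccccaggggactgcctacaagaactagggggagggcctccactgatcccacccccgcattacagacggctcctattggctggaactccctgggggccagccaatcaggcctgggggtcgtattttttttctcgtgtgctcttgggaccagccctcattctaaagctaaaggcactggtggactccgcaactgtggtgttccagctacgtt
Cox7a1: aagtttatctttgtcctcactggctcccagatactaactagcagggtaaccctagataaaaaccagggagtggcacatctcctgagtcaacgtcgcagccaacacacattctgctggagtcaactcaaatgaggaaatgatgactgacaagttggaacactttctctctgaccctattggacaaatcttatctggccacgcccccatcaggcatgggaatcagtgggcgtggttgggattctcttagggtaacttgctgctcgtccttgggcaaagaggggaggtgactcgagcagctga

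Cox8a has 2 ETS core matches and Ndufa4 has 1 NRF1 core match, whereas Ndufa4l2, Cox6b2 and Cox7a1 have none of the 4 motifs and Cox6a2 has 1 MEF2 match. NRF1, the ETS factor GABP and YY1 are known regulators of respiratory genes, and MEF2 of muscle genes. Over the 67 windows of members with at least 50 UMIs, 10 hold the NRF1 core (14.9%, against 3.33% of all 33469 windows), 18 the ETS core (26.9% against 8.75%) and 12 the YY1 core (17.9% against 3.89%). At least 1 of these 3 is in 30 windows (44.8% against 14.5%), while MEF2 is in 1 (1.49% against 3.29%). The members' windows also have more G and C, with a median of 56% against 51.7%. A match is a run of letters and not a shown binding site.

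Cox6a2, whose product replaces Cox6a1 in heart and skeletal muscle, was found mainly in microglia-like cells, which held 183 of its 302 UMIs (60.6%). There it was at 21.8, 19.2 and 22.0 CPM in PBS, G-HD and MPG-HD, in 30, 30 and 38 cells, with at most 10 UMIs in a cell. Macrophage-like cells had 0, 0 and 4 UMIs, oligodendrocyte-like cells 0, 0 and 1 and T-like cells none, which allows up to 9.43 to 18.9 CPM of Cox6a2 in a library (upper 95% Poisson limit). Over the pooled libraries the level in microglia-like cells was 59.3-fold that in the other 5 tested classes (95% interval 34.5 to 111, exact conditional, counting error only), on 14 UMIs in those classes. Without G-HD it was 38.4-fold (21.7 to 74.1) and without MPG-HD 261-fold (70.4 to 2181), the latter on 2 UMIs in the other classes. With all libraries edgeR called it higher against the mean of the others (adjusted p = 1.5e-10). Pooled over libraries, Cox6a2 was at 1.15 CPM or less in each of the other tested classes. It thus passed the low-count filter only through microglia-like cells, and the p-value is conditional on that. The fitted log2 fold change of 6.61 depends on the prior count, since several sums are 0. Cox6a1, in contrast, was at 840, 943 and 1029 CPM in the same cells, so Cox6a2 stayed a small part of the pair. The unnamed cluster 13, led by globin and cell cycle genes, held 41 Cox6a2 UMIs, at 39.6, 2.64 and 25.7 CPM in PBS, G-HD and MPG-HD. The unnamed cluster 4, which also had globin genes among its leading genes, held 15, at 51.1, 6.33 and 6.77. In PBS both lay above the microglia-like level, on 19 and 10 UMIs. In 1 mural-like cell of the PBS library 21 Cox6a2 UMIs stood beside 307 UMIs of mural markers and 0 of skeletal muscle markers.

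Ndufa4l2, the hypoxia-linked relative of Ndufa4, was the main form in mural-like cells, the pericytes and smooth muscle of vessels. There Ndufa4l2 was at 836, 1102 and 943 CPM and Ndufa4 at 318, 113 and 259, so Ndufa4l2 was above Ndufa4 in each library. In no tested class did Ndufa4l2 exceed Ndufa4. Mural-like cells numbered 13, 24 and 19, too few for the test, yet held 278 of the 764 Ndufa4l2 UMIs (36.4%). Fibroblast-like cells held 437 (57.2%) at 29.8, 36.2 and 122 CPM. This level was 199-fold (95% interval 115 to 376, counting error only) that of the other 5 tested classes, which had 13 UMIs together. Without MPG-HD it was 33.6 CPM and 125-fold (59.2 to 316), on 7 UMIs in the other classes, and with all libraries edgeR called it higher (adjusted p = 1.2e-15). Among the tested classes, Ndufa4l2 passed the low-count filter only through fibroblast-like cells, so this p-value is conditional on that. Markers of mural cells summed to 116, 203 and 102 CPM in fibroblast-like cells of PBS, G-HD and MPG-HD. The part of mural cells in the fibroblast-like Ndufa4l2 values was not tested. Endothelial-like cells had 6.66, 23.9 and 53.2 CPM of Ndufa4l2 on 3, 10 and 19 UMIs.

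Cox6b2, the testis form of subunit VIb, was at 112, 67.3 and 106 CPM in fibroblast-like cells. That was 16.0-fold (95% interval 13.8 to 18.6, counting error only) the level of the other 5 tested classes, and the edgeR log2 fold change was 4.06 (SE 0.198, adjusted p = 2.5e-14). In Schwann-like cells it was at 29.9, 31.0 and 32.3 CPM and higher by 1.77 (log2), and in oligodendrocyte precursor-like cells at 69.8, 31.7 and 61.4. Macrophage-like cells, at 0, 0.582 and 2.37 CPM, and oligodendrocyte-like cells, at 0.703, 1.42 and 0.942, were the lowest of the 6 tested classes. NK-like, monocyte-like and neutrophil-like cells had no Cox6b2 UMI. In microglia-like cells (11.1, 7.89 and 21.2 CPM) it was called higher by 1.09, but not without MPG-HD (0.79, edgeR adjusted p = 0.10). Pooled over libraries the microglia-like level was 0.740-fold that of the other 5 classes together, among which fibroblast-like cells dominate, whereas the test weighs the log levels of the classes equally.

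Cox7a1, the muscle form of subunit VIIa, had only 178 UMIs, of which oligodendrocyte-like cells held 98 (55.1%) and fibroblast-like cells 49 (27.5%). It was at 11.9, 7.12 and 9.23 CPM in oligodendrocyte-like and at 7.97, 7.60 and 5.63 in fibroblast-like cells. The oligodendrocyte-like level was 5.39-fold (95% interval 3.91 to 7.47, counting error only) that of the other tested classes, and edgeR called both classes higher (adjusted p = 1.6e-07 and 1.5e-05). Cox7a1 passed the low-count filter through these classes, so the p-values are conditional on that. In Schwann-like cells, on 1, 5 and 6 UMIs, it was called higher (edgeR adjusted p = 0.028), but not without G-HD or MPG-HD. T-like and mural-like cells had no Cox7a1 UMI, which in T-like cells allows up to 9.43 to 18.9 CPM (upper 95% Poisson limit).

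**Figure D5:**
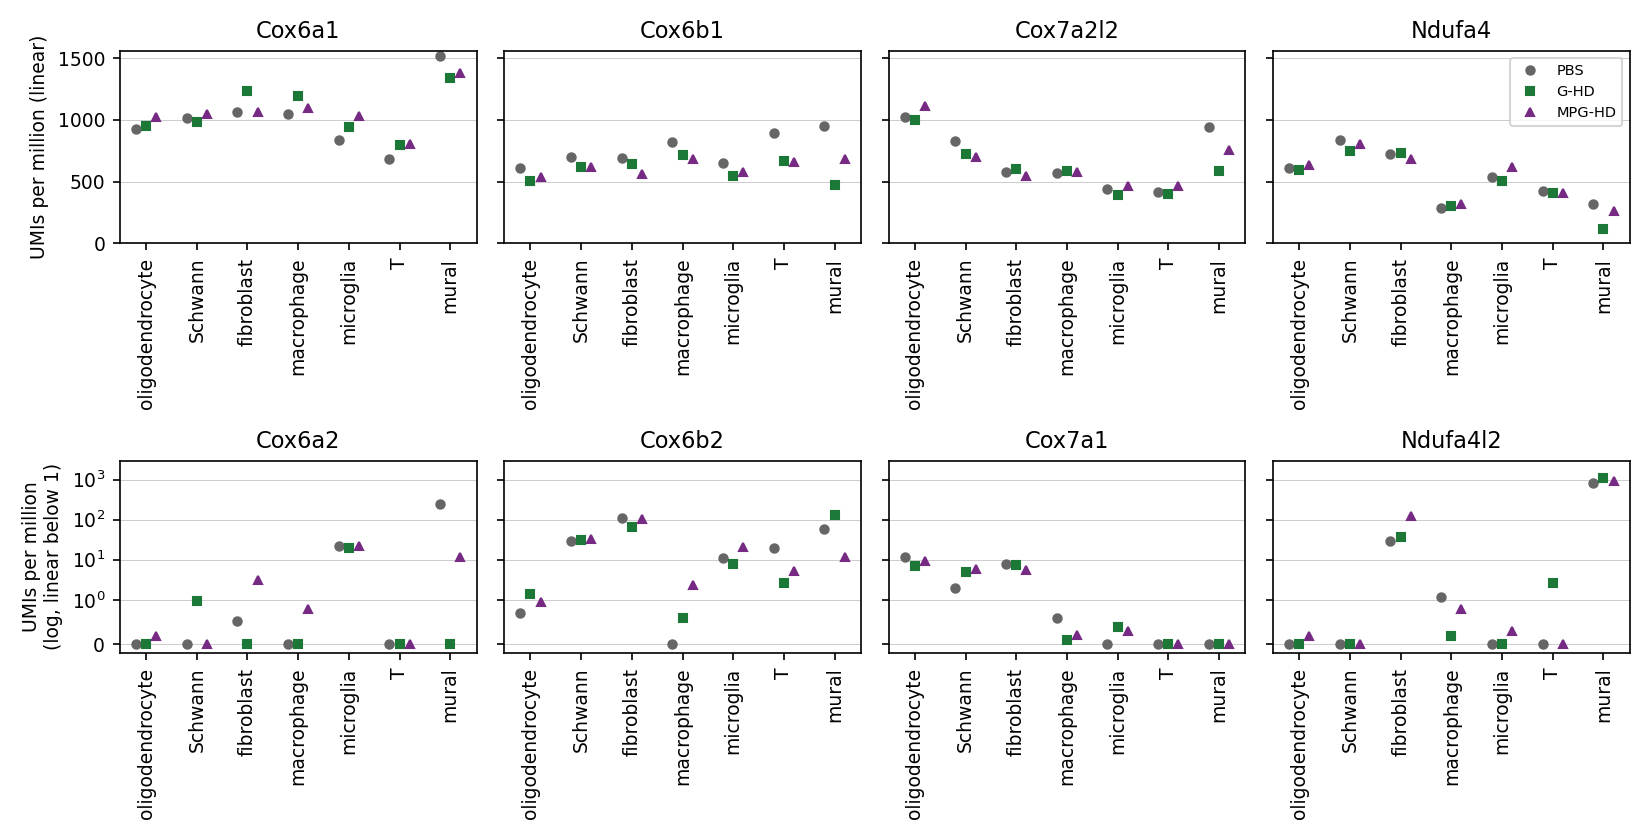
Level in CPM of 4 widely expressed forms (top, linear axis) and of 4 restricted isoforms (bottom, log axis that is linear below 1) in the 6 tested classes and in mural-like cells; each point is 1 library, Cox6b1 is the feature ENSRNOG00000024309, and Cox7a2l2 is set above Cox7a1 only by its symbol. Cox6a2 stands at 19.2 to 22.0 in microglia-like cells, Ndufa4l2 at 836 to 1102 in mural-like cells where Ndufa4 is at 113 to 318, and the high PBS point of Cox6a2 in mural-like cells comes from 1 cell.

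The summed members were compared between treatments within each class. There is 1 library per condition, so treatment and library cannot be told apart, no test between libraries was made, and intervals (95%, exact conditional) cover counting error only. In macrophage-like cells the sum was 26249 CPM in PBS, 26441 in G-HD and 25265 in MPG-HD. The ratio of G-HD over PBS was 1.01 (95% interval 1.00 to 1.01, which includes 1). That of MPG-HD over PBS was 0.963 (0.954 to 0.971) and that of MPG-HD over G-HD 0.956 (0.949 to 0.962). Over the 6 classes the ratio of G-HD over PBS ran from 0.937 in T-like to 1.05 in fibroblast-like cells, and that of MPG-HD over PBS from 0.954 in T-like to 1.09 in microglia-like cells. That of MPG-HD over G-HD ran from 0.920 in fibroblast-like to 1.12 in microglia-like cells, which were at 22408 CPM in G-HD and 25112 in MPG-HD. The comparisons share libraries.

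The shares over all genes given next are not matched for abundance, and ratios of low counts scatter more. The members tested by edgeR had a median log2 CPM of 8.13, against 4.20 for all genes tested, and the part of abundance was not tested. Few members passed 1.5-fold. In macrophage-like cells 0 of 74 members with at least 50 UMIs did so for G-HD over PBS (5.86% of all genes higher and 4.89% lower). For MPG-HD over PBS 1 of 74 was higher (3.44% of all genes) and 1 lower (5.23%), and for MPG-HD over G-HD 0 were higher (2.57%) and 1 lower (4.86%). The lower one was Ndufs1 in both, at 6.31 CPM on 32 UMIs in MPG-HD against 12.8 in PBS and 10.1 in G-HD, ratios of 0.494 (95% interval 0.303 to 0.797) and 0.625 (0.407 to 0.937). The higher one was the second Uqcrb feature (ENSRNOG00000032204), at 1.52, which shares its symbol with a far more abundant feature.

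In oligodendrocyte-like cells 1 of 73 members was past 1.5-fold higher for G-HD over PBS (5.1% of all genes), the same second Uqcrb feature, at 1.80 (95% interval 1.09 to 2.99). When every cell weighed the same its ratio was 0.792, so it has no stable direction. For MPG-HD over PBS 1 of 74 was lower (5.22% of all genes), Ndufs1 at 0.663. Schwann-like cells had none in either direction in any of the 3 comparisons, where 2.19% to 7.89% of all genes were past 1.5-fold in a direction. In microglia-like cells Ndufs3, a core subunit of complex I, was at 54.7 CPM in PBS and 86.9 in MPG-HD, a ratio of 1.59 (95% interval 1.29 to 1.96), and Cox6b2 was at 11.1 and 21.2, a ratio of 1.91 (1.22 to 3.06). These were the 2 of 75 members past 1.5-fold higher there (3.71% of all genes). For G-HD over PBS the second Uqcrb feature was the 1 of 74 higher (6.07% of all genes), at 1.58 (0.985 to 2.57). Ndufc1 was the 1 of 74 lower in G-HD than in PBS (4.2% of all genes), at 0.638 (0.514 to 0.789). Cox6b2 was the 1 of 75 higher in MPG-HD than in G-HD (2.78%), at 2.68 (1.63 to 4.58).

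In fibroblast-like cells Ndufa4l2 had the largest ratio between libraries. It was at 29.8 CPM in PBS (56 UMIs), 36.2 in G-HD (100) and 122 in MPG-HD (281), and the ratio of MPG-HD over PBS was 4.09 (95% interval 3.06 to 5.55). A single cell held 116 of the 281 UMIs, with 1369 UMIs of fibroblast and 4 of mural markers. Without the top cell of each library the ratio was 3.36, and that of MPG-HD over G-HD went from 3.36 to 2.19. The class joins 3 clusters whose mix differed between libraries: cluster 9 held 35 of 137 cells in PBS, 127 of 237 in G-HD and 48 of 168 in MPG-HD. Cluster 14 held 198 of the 281 Ndufa4l2 UMIs of MPG-HD, 116 of them in that single cell. With this cell kept, Ndufa4l2 was at 11.7, 51.5 and 314 CPM in cluster 14. In cluster 9 it was at 37.3, 36.8 and 35.7 CPM, and in cluster 11 at 38.5, 11.5 and 56.8. The Ndufa4l2 ratio of MPG-HD over PBS was 26.8 in cluster 14 (95% interval 12.8 to 67.6), while those of clusters 9 and 11, at 0.958 and 1.47, had intervals that included 1. The cluster 14 ratio includes the cell with 116 UMIs, and its value without that cell was not computed. Its interval counts the UMIs of 1 cell as separate events.

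Cox6b2 over the fibroblast-like class was at 0.600 for G-HD over PBS (95% interval 0.490 to 0.734) and at 1.57 for MPG-HD over G-HD (1.29 to 1.91). Within clusters 9, 11 and 14 the Cox6b2 ratios of G-HD over PBS were 0.835, 0.597 and 0.984, and those of MPG-HD over G-HD 1.38, 1.44 and 1.08. Only in cluster 11 did the intervals of these ratios leave out 1, and the part of the cluster mix in the class values was not tested. In all, 1 of 75 members was higher and 1 lower for G-HD over PBS (11.2% and 8.25% of all genes), 2 and 2 for MPG-HD over PBS (3.73% and 7.17%) and 2 and 0 for MPG-HD over G-HD (5.11% and 11.8%). The second Uqcrb feature (ENSRNOG00000032204) was the one higher for G-HD over PBS, at 2.45, and was higher for MPG-HD over PBS beside Ndufa4l2, at 1.75. The 2 lower for MPG-HD over PBS were Ndufc1, at 0.624, and an Ndufa10l1 feature (ENSRNOG00000016470), at 0.592.

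T-like cells, with the fewest UMIs, had 1 of 65 members higher and 1 lower for G-HD over PBS (8.78% and 7.01% of all genes), 1 of 56 higher and 2 lower for MPG-HD over PBS (4.62% and 8.1%) and 1 of 63 higher and 4 lower for MPG-HD over G-HD (5.01% and 7.7%). Ndufa7, an accessory subunit of complex I, was at 72.8 CPM in PBS (15 UMIs), 128 in G-HD (50) and 205 in MPG-HD (40). Its ratio of MPG-HD over PBS was 2.81, with a 95% interval of 1.52 to 5.48 for counting error. Ndufa7 was the member above 1.5-fold in each of the 3 comparisons, with an interval that included 1 for G-HD over PBS, and Ndufb3, at 0.606, was the one lower for G-HD over PBS. Uqcrc2 and Ndufc2 were the 2 lower for MPG-HD over PBS, at 0.558 and 0.606 with intervals that included 1. Ndufv1, Uqcrc2, Ndufc2 and Uqcrfs1 were the 4 lower in MPG-HD than in G-HD, at 0.546 to 0.628.

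Some members lay on the same side in all 6 classes. Of 65 members with at least 50 UMIs in each class, Cox5a was above 1 for G-HD over PBS in all 6, from 1.00 in T-like to 1.19 in oligodendrocyte-like cells. Below 1 in all 6 were 7: Atp5f1e, Cox6b1 (ENSRNOG00000024309), Cox7c, Ndufa3, Ndufb4, Uqcr10 and Uqcrq. Uqcr10 was at 0.785 in macrophage-like cells (95% interval 0.753 to 0.818) and 0.947 in fibroblast-like cells (0.883 to 1.01). Over all 1153 genes with such counts 8.67% were above and 7.11% below in all 6. For MPG-HD over PBS 1 of 56 members, Cox6a1, was above and 2, Cox6b1 (ENSRNOG00000024309) and Ndufb4, below in all 6, against 11% and 7.48% of all 816 genes. For MPG-HD over G-HD 3 of 63 members, Atp5f1e, Atp5mc1 and Ndufa6, were above and 0 below in all 6 (3.82% and 7.29% of all genes).

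Transcripts encoded by mitochondrial DNA lay further from 1 than the nuclear-encoded members for G-HD over PBS in each class. The 13 Mt- genes code for core subunits of complexes I, III, IV and V. In macrophage-like cells their sum was 42619 CPM in PBS, 35752 in G-HD and 38686 in MPG-HD, a ratio of G-HD over PBS of 0.839 (95% interval 0.834 to 0.844). It was below 1 in all 6 classes, from 0.791 in microglia-like to 0.892 in T-like cells. In macrophage-like cells 12 of the 13 genes were below 1, 10 of them with an interval wholly below 1, from 0.787 for Mt-nd5 to 0.918 for Mt-co2. Mt-atp6, a proton-channel subunit of complex V, was at 9541, 7595 and 8555 CPM, and Mt-co1, the catalytic subunit of complex IV, at 7322, 6143 and 5971. Mt-nd6, at 1.24, and Mt-atp8 and Mt-nd4l had intervals that included 1.

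The ratio of nuclear-encoded over Mt- UMIs was therefore above that of PBS in G-HD. It was 0.616 in PBS, 0.740 in G-HD and 0.653 in MPG-HD in macrophage-like cells. Oligodendrocyte-like cells had 0.596, 0.717 and 0.647, microglia-like 0.602, 0.738 and 0.736, fibroblast-like 0.479, 0.611 and 0.502, Schwann-like 0.510, 0.571 and 0.530 and T-like cells 0.693, 0.728 and 0.677. G-HD was above PBS in 6 of 6 classes, and MPG-HD in 5 of 6, or in 4 of 6 with no limit on the Mt- share of a cell. The share of Mt- UMIs is also a measure of cell quality after dissociation: its median per kept cell was 4.08%, 3.37% and 3.94% in PBS, G-HD and MPG-HD, and the part of cell quality was not tested. When the Mt- genes were compared between classes by edgeR with TMM scaling, 10 of the 13 Mt- genes were higher and 0 lower in fibroblast-like cells and 0 higher and 11 lower in T-like cells. Of all genes 33.8% and 19.4% were higher and lower in fibroblast-like and 15.4% and 21.3% in T-like cells. With total UMI scaling the Mt- calls were 12 and 0 (39.8% and 14.2% of all genes), and 0 and 10 (17.1% and 18.6%). In macrophage-like cells 9 were higher and 0 lower with TMM (31.5% and 18.6% of all genes) but 1 higher and 9 lower with total UMI scaling (16.1% and 48.1%).

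Other lists of mitochondrial genes are given by counts of edgeR calls made in both scalings. Of all genes 35.7% were higher and 23.9% lower in this way in oligodendrocyte-like, 15.4% and 18.6% in T-like and 16.1% and 18.6% in macrophage-like cells, and several lists are near these shares. In oligodendrocyte-like cells 17 of 39 assembly factors, which build the complexes, were higher and 4 lower, and so were 5 and 1 of 8 genes of the pyruvate dehydrogenase step and 6 and 3 of 10 carriers and porins. Of 16 glycolytic enzymes 5 were higher and 8 lower there, and of 86 ribosomal protein genes 4 were higher and 78 lower. In T-like cells 1 of 39 assembly factors was higher and 7 lower, 0 of 12 enzymes of the TCA cycle higher and 4 lower, and 5 of 16 glycolytic enzymes higher and 4 lower. In macrophage-like cells 4 of 39 assembly factors were higher and 6 lower. Of 17 regulators of mitochondrial biogenesis 1 was higher and 4 lower in oligodendrocyte-like and 3 and 2 in macrophage-like cells. In macrophage-like cells the balance of these regulators turned with the scaling, from 6 higher and 2 lower with TMM to 3 and 9 with total UMI scaling, and that of assembly factors from 12 and 6 to 4 and 25.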

How the data were processed

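UMIs were measured in 3 single-cell libraries of rat spinal cord. The deposited matrices hold whole UMI counts per gene and barcode, made by the authors with Cell Ranger 3.0.2 per the submitters' processing notes; per the file headers the version was 3.1.0. The notes name mouse genome builds, but the gene identifiers are those of rat, and the rat build is not stated in the sources read. The members and all lists were chosen with earlier results of these data known.

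Barcodes with at least 200 genes and at most 20% of UMIs from Mt- genes were kept. The doublet caller marked 12 of 5815 barcodes (0.206%), which was taken as not having worked, although these were removed. That caller was run in Scanpy 1.11.5. Cells were clustered without the members and Mt- genes by custom code with scikit-learn 1.9.0, leidenalg 0.10.2 and python-igraph 0.11.9 (Python 3.11.15). It used 2000 variable genes, 30 components, 20 neighbours and a resolution of 0.8. Clusters were named from 21 marker sets; the minimum marker score of 0.5 was set after seeing the data.

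UMIs were summed per library and class, where every library held 50 cells or more of a class, and tested in edgeR 4.0.16 (R 4.3.3; filterByExpr, TMM, quasi-likelihood, Benjamini-Hochberg adjustment at 0.05) with the library as a block. Separate cells of 1 library are not replicates. The p-values rest on the residual spread of the 18 sums of all 6 classes (10 residual degrees of freedom), pooled in part across genes. Each library is also 1 condition, so this spread takes in class differences that vary with treatment, and no condition has a replicate. The script was tested on simulated data. Alternatives used DESeq2 1.42.0, other scalings, filters, clusterings and weights, and left out each library. Libraries were compared as ratios with exact conditional 95% intervals, which cover counting error only. Figures were drawn with matplotlib 3.10.9.

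Genes were named by rule: the 3 members with most UMIs in each complex, isoforms with at least 50 UMIs, the 4 largest log2 fold changes in each direction per contrast, the first 4 members past 1.5-fold in each direction per library pair and class, and the Mt- genes. Others, such as those called in both scalings, on one side in all 6 classes, or given as low-count examples, were named after their values were seen. A result that the naming rule would give for 1 further gene is not reported here.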

Additional observations from a re-analysis of the deposited data

How the results depend on the processing

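The balance of higher and lower calls turned with total UMI scaling in macrophage-like, microglia-like and Schwann-like cells and in oligodendrocyte-like against Schwann-like cells, and 22 counts or levels moved under at least 1 alternative. Total UMI scaling, chosen after seeing the data, gave 14 members higher and 31 lower in macrophage-like, 8 and 43 in microglia-like, 46 and 5 in Schwann-like cells, 6 lower in fibroblast-like and 5 higher in T-like cells, 12 and 22 in microglia-like against macrophage-like and 14 and 22 in oligodendrocyte-like against Schwann-like cells. RLE scaling gave 5 higher in T-like cells. DESeq2 gave 22 lower in microglia-like, 25 lower in oligodendrocyte-like and 6 higher in T-like cells. With at least 500 genes and at most 10% Mt- UMIs per cell, 4 were lower in macrophage-like, 27 in microglia-like and 29 in oligodendrocyte-like cells and 2 were higher in Schwann-like cells, and T-like cells were not tested. At resolution 0.4, 5 were higher in Schwann-like cells. Leaving out each library in turn gave 9 to 12 lower in fibroblast-like, 7 to 12 lower in microglia-like and 2 to 6 higher in Schwann-like cells, and 25 to 43 higher in oligodendrocyte-like against Schwann-like cells. The cause of these changes was not tested.

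In macrophage-like cells the summed ratio of G-HD over PBS was 0.994 at resolution 0.4, 0.995 when every cell weighed the same and 1.02 without the cell with the most member UMIs. The ratio of MPG-HD over PBS was 0.973 without that cell, and that of MPG-HD over G-HD 0.972 when every cell weighed the same. Members past the fold for G-HD over PBS numbered 1 with the stricter cell filter, 1 with no limit on Mt- and 6 at a lower fold limit. For MPG-HD over PBS they were 1 when every cell weighed the same, 6 at that lower limit, 1 at 2-fold and 0 with at least 200 UMIs, and for MPG-HD over G-HD 4, 0 and 0 under the last 3 of these. Nuclear over Mt- UMIs in PBS, G-HD and MPG-HD were 0.660, 0.773 and 0.695 with the stricter filter and 0.621, 0.721 and 0.637 with no limit on Mt-, and 0.608 in PBS when the members took part in the clustering. The second Uqcrb feature (ENSRNOG00000032204) in oligodendrocyte-like cells reversed for G-HD over PBS, from 1.80 to 0.792, when every cell weighed the same. No paired analysis was possible because each condition has 1 library. Pooled isoform folds with each library left out, and fibroblast-like ratios within clusters, were chosen after seeing the data.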

Other observations

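Within a library, the share of a cell's UMIs that came from the members was related to the cell's depth in some classes. Spearman's rho over cells ran from 0.434 to 0.510 in macrophage-like, from 0.416 to 0.560 in microglia-like and from 0.397 to 0.524 in Schwann-like cells of the 3 libraries, but from −0.0184 to 0.0460 in oligodendrocyte-like cells. Both measures come from the same UMIs of a cell, so these values are descriptions. Some classes join clusters of unlike depth. Those of macrophage-like cells were at 2.05 and 0.888 times the library's median UMIs. Those of oligodendrocyte-like cells were at 1.29, 1.41 and 0.102, the last with 196 cells. The part of this mix in the values was not tested.

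Small classes were not tested. B-like and NK-like cells were at 19216 ± 2302 and 18816 ± 1138 CPM (SD, n = 3 libraries), below T-like cells on average. B-like cells numbered 9, 105 and 13 in PBS, G-HD and MPG-HD, and NK-like cells 5, 15 and 11. In G-HD, B-like cells, at 21869 CPM, lay above T-like cells, at 21021. Endothelial-like cells, at 23558 ± 1005 CPM, lay within the range of the tested classes. In mural-like cells the sum of Ndufa4 and Ndufa4l2 was 1153, 1215 and 1203 CPM in PBS, G-HD and MPG-HD, although their shares differed between libraries.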
